A study of Mus musculus with 17 samples.

Results

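The genes described here were taken as motile cilium genes from the deposited gene count table by symbol: dynein heavy chains (Dnah), dynein intermediate chains (Dnai), cilia and flagella associated proteins (Cfap), radial spoke proteins (Rsph), nexin-dynein regulatory complex subunits (Drc), and Ccdc39, Ccdc40, Spag17, Spag6l and Foxj1. A symbol alone does not show that a gene is part of the motile cilium. The rule gave 75 of the 56953 genes in the table, and it used names only, not measured values. Of the 75, 70 had enough counts to be tested, and Cfap221, Cfap73, Cfap97d1, Cfap107 and Dnai3 did not.

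Motile cilia beat by means of dynein motors that sit in inner and outer arms on a ring of microtubule doublets, while radial spokes and a central pair of microtubules set when each motor acts. In the brain they are carried mainly by the ependymal cells that line the ventricles and, in a modified form, by choroid plexus epithelium, and Foxj1 is the transcription factor that switches on their genes. RFX transcription factors such as Rfx3 act beside Foxj1 and bind a promoter motif known as the X-box. Neurons and astrocytes instead carry a single immotile primary cilium, which lacks dynein arms, radial spokes and the central pair.

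RNA came from prefrontal cortex of mice aged 8 months on a B6C3F1/J background that all groups shared, as polyadenylated RNA sequenced in 17 libraries. WT mice (n = 5) carried neither the transgene nor the knockout. PS19 mice, labelled hTau (n = 6), carried human 1N4R Tau with the P301S mutation under the mouse prion promoter, so the transgene is not limited to 1 cell type. CgA-KO/PS19 mice, labelled CgA-KO/hTau (n = 6), carried the same transgene and lacked chromogranin A (gene Chga) in the whole body from birth. Every CgA-KO/PS19 library had 0 Chga counts, against WT libraries at 152 to 180 CPM (counts scaled to library size, TMM scaled) and PS19 libraries at 162 to 177 CPM. Per the study's methods each genotype held males and females and n counts biological replicates. No fit had sex as a term, since the labels leave it out for single libraries.

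Library totals ran from 8838334 in WT replicate 4 to 227651681 in PS19 replicate 6. Summed striatum markers were 1320 to 4155 CPM in WT, 305 to 353 CPM in PS19, 2670, 645 and 2709 CPM in CgA-KO/PS19 replicates 1 to 3 and 295 to 320 CPM in replicates 4 to 6. Summed choroid plexus markers were 1566 CPM in WT replicate 5 and 199 to 336 CPM in the other 16 libraries. Cortical neuron markers summed to 4730 to 8092 CPM in all 17. PS19 replicates 4 to 6 were close to each other, with a robust SD of the log2 ratio of 0.0523 to 0.0607 over 3761 well counted genes, as were CgA-KO/PS19 replicates 1 and 3 (0.0980), against 0.146 or more for other pairs of 1 genotype; at 1.75 to 2.57 times the counting noise they were kept as separate samples. Since tissue pieces were sequenced, fewer cells of a type and less RNA per cell cannot be told apart.

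Levels of the 75 genes were low in cortex and spread over a wide range. Their mean over the 17 libraries was under 1 CPM for 33 genes, from 1 to 10 CPM for 28 and at least 10 CPM for 14. Per kilobase of exon, the scale on which genes can be compared, levels ran from 0.00922 CPM per kb for the inner arm motor Dnah12 to 35.4 CPM per kb for Cfap36, with a median of 0.320 CPM per kb. The 4 most abundant genes by CPM were Cfap36, Cfap97, Cfap418 and Cfap20, which are not parts of the dynein arms, radial spokes or central pair and which made up 43.4% of the summed CPM of all members. Per length, Rsph3b led the radial spoke genes (6.08 CPM per kb), and Drc1, the scaffold of the nexin-dynein regulatory complex, led its complex (5.53 CPM per kb). Foxj1 stood at 1.11 CPM per kb, close to the radial spoke head gene Rsph4a (1.03 CPM per kb), whereas the dynein heavy chains reached at most 0.618 CPM per kb, for Dnah6. Cfap107, a protein of the doublet lumen, had 0 counts in every library, which allows up to 1.03 CPM in the shallowest and 0.0396 CPM in the deepest library (counting error only).

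**Figure D1:**
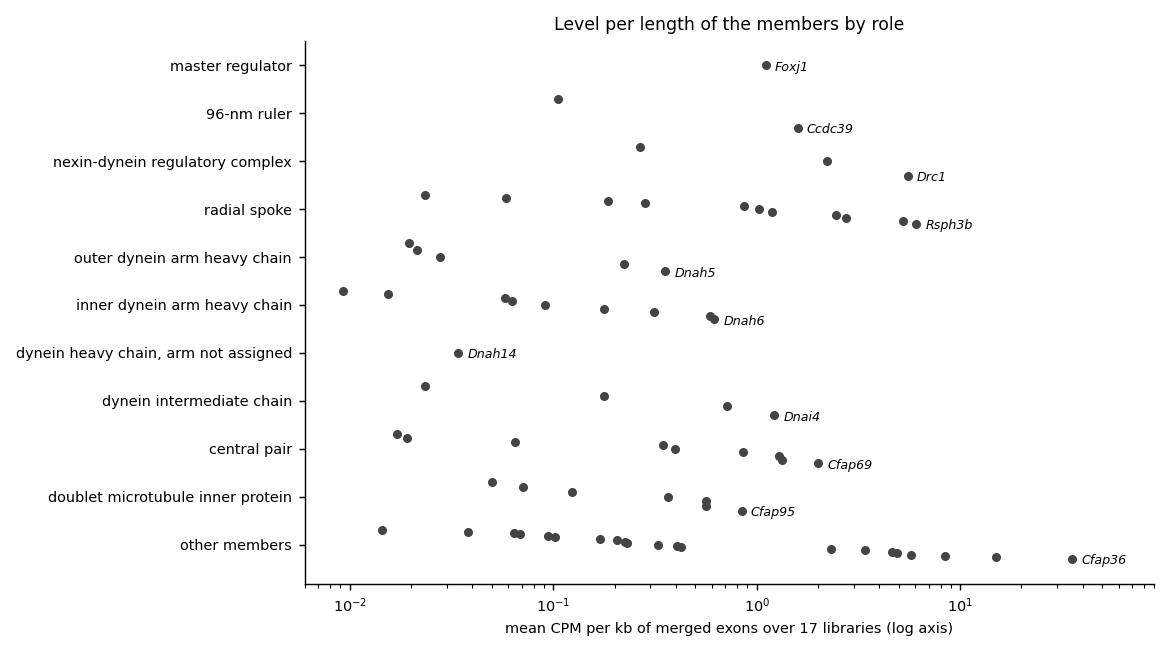
Mean level of each member over the 17 libraries, in CPM per kb of merged exons on a log axis, with 1 row for each role and the gene with the highest level of each role named. Cfap36 stands highest at 35.4 CPM per kb, and the dynein heavy chains reach at most 0.618 CPM per kb.

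To ask how the tau transgene went with the ciliary genes, WT was compared with PS19. Of the 70 genes tested, 10 were higher in WT (adjusted p under 0.05, edgeR quasi-likelihood test over all 23062 genes tested), beside 3.95% of all genes, and 0 were lower, beside 1.95% of all genes. At an unadjusted p under 0.05, 28 members were higher and 0 lower, beside 2568 and 2257 of the 23062 genes. DESeq2 and limma voom also called 0 members lower, beside 2.53% and 8.1% of all genes. The fit with the striatum marker level as a covariate called 2 members lower, beside 7.12% of all genes. The log2 fold change was above 0 for 59 of the 70, with a median of 0.38, against −0.01 over all genes tested. The 10 genes came from several parts of the axoneme: radial spoke heads (Rsph4a, Rsph1), the ruler that spaces the dynein arms (Ccdc39), the nexin link (Drc7), an inner arm motor (Dnah7a), the central pair (Spag17), and Cfap44, Cfap57, Cfap70 and Cfap77. Of the 5 outer arm heavy chains and 3 dynein intermediate chains tested, 0 were called. The choice of libraries decided much of this count. It was 6 of 68 without WT replicate 5, the library with the highest summed choroid plexus markers, beside 2.23% of all genes. It was 2 of 71 (Rsph4a and Rsph1) without WT replicates 4 and 5, beside 1.55% of all genes.

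To ask whether loss of chromogranin A moved these genes on the tau background, CgA-KO/PS19 was compared with PS19. Here 6 members were higher, beside 5.50% of all genes, and 3 were lower, beside 4.22%, so the shares of 8.57% and 4.29% lay near those of all genes. The median log2 fold change was 0.22, against 0.03 over all genes tested. Ccdc39, Dnah7a, Rsph4a and Cfap44 were higher both here and in WT, and the 2 comparisons share the PS19 libraries. No share of all genes higher in both is given, so these 4 are not read as an excess. Cfap126 and Cfap20dc made up the 6, and the central pair gene Cfap54 and the motors Dnah6 and Dnah8 were lower. With the near-identical libraries averaged, 0 members were higher and 1 (Cfap54) lower, and the shares of all genes called higher and lower fell to 0.509% and 0.241%.

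Between CgA-KO/PS19 and WT, 1 member was higher, Cfap20dc, beside 3.56% of all genes, and 6 were lower, Cfap54, Drc7, Dnah6, Dnah8, Rsph1 and Cfap57, beside 2.89%. The median log2 fold change was −0.18, against 0.01 over all genes tested.

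**Figure D2:**
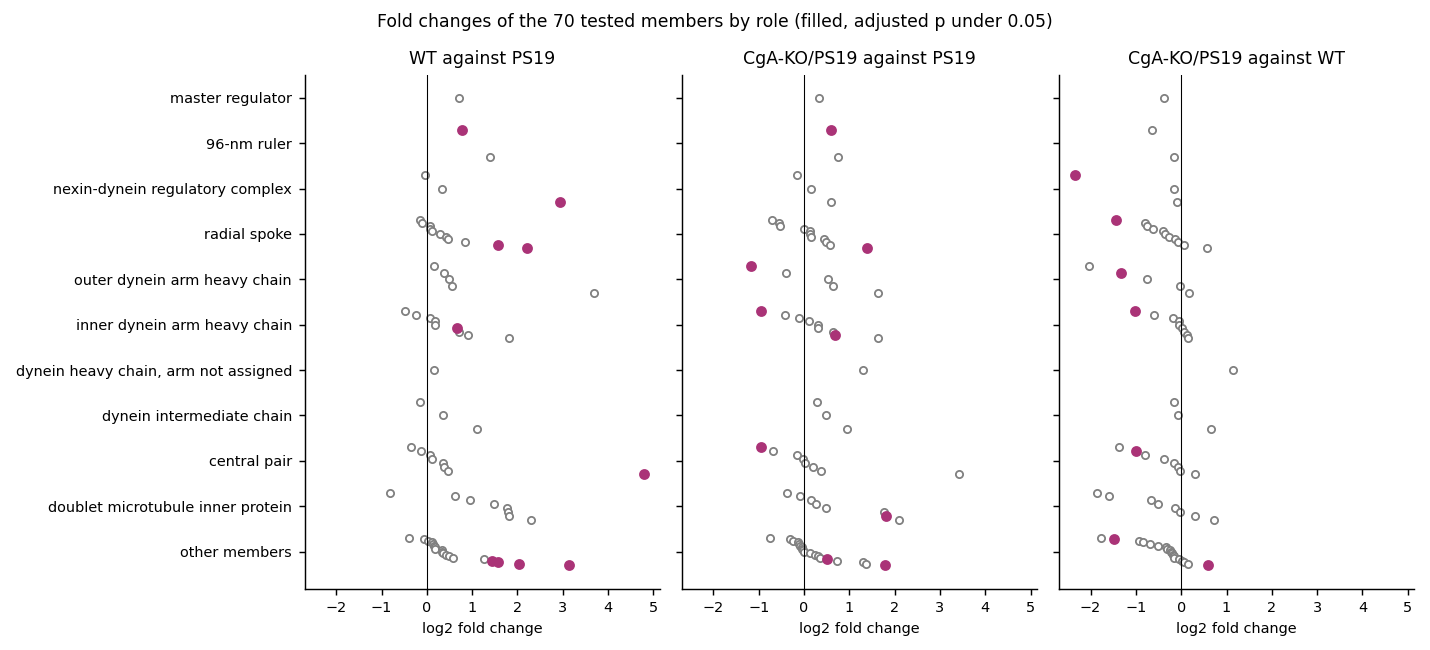
Log2 fold change of the 70 tested members in each of the 3 comparisons, with 1 row for each role, genes within a row ordered by fold change, and filled points for an adjusted p under 0.05. Most points lie right of 0 for WT against PS19, where 10 are filled, and points lie on both sides for CgA-KO/PS19 against PS19, where 9 are filled.

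Radial spokes reach from the doublets to the central pair, and Rsph4a and Rsph1 are parts of the spoke head. Rsph4a (ENSMUSG00000039552, chr10:33905111-33916021, GRCm38) had the smallest p of all members. It was 3.73, 6.96, 4.33, 7.41 and 10.6 CPM in the WT libraries, 0.902 to 2.00 CPM (median 1.39) in PS19 and 2.7 to 5.18 CPM (median 3.74) in CgA-KO/PS19. PS19 overlapped with neither other group. Rsph4a was 4.65-fold higher in WT than in PS19 (log2 2.22 ± 0.26, SE, adjusted p = 0.00025, edgeR) and CgA-KO/PS19 exceeded PS19 by 2.64-fold (log2 1.40 ± 0.25, adjusted p = 0.00429, edgeR), while CgA-KO/PS19 and WT differed by a log2 of −0.81 ± 0.26 (adjusted p = 0.0681, edgeR). The difference from WT stayed past the threshold in every alternative run, and that from CgA-KO/PS19 in every one but the averaging of near-identical libraries.

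Rsph1 (ENSMUSG00000024033, chr17:31255019-31277383) was high in WT and lower in both transgenic groups. It was 4.54, 3.57, 4.53, 7.98 and 10.5 CPM in WT, 1.46 to 2.74 CPM (median 2.13) in PS19 and 1.77 to 3.21 CPM (median 2.15) in CgA-KO/PS19, so that WT lay above both other groups, which overlapped. The fold was 2.97 between WT and PS19 (log2 1.57 ± 0.27, adjusted p = 0.00239, edgeR) and CgA-KO/PS19 was lower than WT by a log2 of −1.44 ± 0.28 (adjusted p = 0.00637, edgeR). The first call held in every alternative run, and the second in every one but that without WT replicates 4 and 5. The other 9 radial spoke genes were not called in any comparison. Among them Rsph3b was the most abundant per length, at 19.6 ± 1.67 CPM (SD, n = 5) in WT, 18.7 ± 3.16 CPM (n = 6) in PS19 and 18.6 ± 4.70 CPM (n = 6) in CgA-KO/PS19. Its counts are uncertain, since 52.8% of its 100-base transcript windows also occur in other genes, most of them in its copy Rsph3a.

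Ccdc39 and Ccdc40 form the ruler that sets the repeat along each doublet at which inner arms and the nexin link attach. Ccdc39 (ENSMUSG00000027676, chr3:33812362-33844310) was 13.2, 10.8, 12.5, 17.7 and 18.7 CPM in WT, 6.99 to 9.51 CPM (median 8.72) in PS19 and 10.3 to 17.1 CPM (median 11.8) in CgA-KO/PS19. All 6 PS19 libraries lay below all other libraries. The gene was 1.71-fold higher in WT (log2 0.77 ± 0.17, adjusted p = 0.0100, edgeR) and 1.52-fold higher in CgA-KO/PS19 (log2 0.60 ± 0.16, adjusted p = 0.0260, edgeR). The second call was lost when PS19 replicate 2, PS19 replicate 3 or CgA-KO/PS19 replicate 2 was left out, in the replicate block fit, with no filter on low counts and with the near-identical libraries averaged. Ccdc39 overlaps Ttc14 on the opposite strand, which shares 11.9% of its 100-base windows, and the strand setting of the counts is not given in the sources used here. Its partner Ccdc40 was 0.636, 0.876, 0.914, 0.570 and 1.79 CPM in WT, 0.190 to 0.565 CPM in PS19 and 0.260 to 1.51 CPM in CgA-KO/PS19, and did not pass the test (adjusted p = 0.0724 against WT, edgeR), although WT and PS19 did not overlap.

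Inner arm heavy chains are single motors that shape the bend. Dnah7a, on chromosome 1 from 53397006 to 53706784, was 2.86, 2.61, 2.12, 3.19 and 2.34 CPM in WT, 1.49 to 1.88 CPM (median 1.6) in PS19 and 2.17 to 3.15 CPM (median 2.57) in CgA-KO/PS19. PS19 again overlapped with neither group, and WT replicate 5 was not its highest library. Dnah7a was 1.59-fold higher in WT (log2 0.67 ± 0.15, adjusted p = 0.0114) and 1.6-fold higher in CgA-KO/PS19 (log2 0.68 ± 0.14, adjusted p = 0.00819), both edgeR. Both calls were lost with the near-identical libraries averaged, and the WT call also without WT replicates 4 and 5. The mouse has 3 copies of this gene, and 19.1% of the 100-base windows of Dnah7a are shared with other genes. Dnah7b and Dnah7c were not called, with log2 fold changes against PS19 of 0.17 ± 0.34 (WT) and 0.31 ± 0.32 (CgA-KO/PS19) for Dnah7b, and of −0.24 ± 0.21 (WT) and −0.12 ± 0.20 (CgA-KO/PS19) for Dnah7c; whether the copies differ in response was not tested.

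The promoters of the 3 copies are shown because Dnah7a passed the test and its copies did not. These are the 250 bases before the RefSeq start on GRCm38.p6, with a match to GTTGCC, an X-box half-site, in capitals: chr1:53706785-53707034 on the reverse strand, chr1:46066603-46066852 and chr1:46425268-46425517 on the forward strand.
Dnah7a: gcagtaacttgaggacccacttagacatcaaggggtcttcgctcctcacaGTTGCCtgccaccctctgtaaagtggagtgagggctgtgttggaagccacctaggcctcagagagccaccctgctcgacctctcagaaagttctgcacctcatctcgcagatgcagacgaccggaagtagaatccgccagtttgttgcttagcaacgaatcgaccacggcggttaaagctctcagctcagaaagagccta
Dnah7b: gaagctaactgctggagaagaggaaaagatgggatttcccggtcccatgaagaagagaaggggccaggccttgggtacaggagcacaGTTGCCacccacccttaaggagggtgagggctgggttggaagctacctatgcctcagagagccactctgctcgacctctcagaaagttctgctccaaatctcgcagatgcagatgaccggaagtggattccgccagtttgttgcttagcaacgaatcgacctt
Dnah7c: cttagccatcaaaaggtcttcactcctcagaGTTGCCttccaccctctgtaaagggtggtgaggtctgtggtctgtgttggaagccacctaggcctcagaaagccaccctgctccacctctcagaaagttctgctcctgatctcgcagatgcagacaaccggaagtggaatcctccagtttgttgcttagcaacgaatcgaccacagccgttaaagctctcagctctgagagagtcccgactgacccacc
Each holds 1 exact match to GTTGCC, starting at −200, −163 and −219 from the start, and the longest run common to all 3 is 29 bases, ccagtttgttgcttagcaacgaatcgacc, which ends at −36, −3 and −48. That run holds gttgct, which differs from GTTGCC in its last base, followed by its reverse complement agcaac. The exact search leaves such variants of the half-site unmarked.

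Cfap44, a protein of the tether that links an inner arm motor to its doublet, followed the same pattern. It lies on chromosome 16 from 44394796 to 44482428 and was 1.42, 1.49, 1.70, 1.82 and 4.06 CPM in WT, 0.0729 to 0.729 CPM (median 0.563) in PS19 and 1.13 to 3.51 CPM (median 1.54) in CgA-KO/PS19. The PS19 libraries lay below all others, and single libraries (WT replicate 5 and CgA-KO/PS19 replicate 2) led each of the other groups. The fold was 4.07 for WT (log2 2.03 ± 0.43, adjusted p = 0.00847) and 3.46 for CgA-KO/PS19 (log2 1.79 ± 0.41, adjusted p = 0.0143), both edgeR. Both calls were lost with the striatum covariate and with the near-identical libraries averaged, and the WT call also with the choroid plexus covariate and without WT replicates 4 and 5.

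Promoters of Cfap44 (chr16:44394549-44394798, forward strand), Ccdc39 (chr3:33844311-33844560, reverse strand) and Cfap20dc (chr14:8666291-8666540, reverse strand), 3 further genes higher than PS19 in the knockout, are shown in the same way, with GTTGCC or its complement GGCAAC in capitals.
Cfap44: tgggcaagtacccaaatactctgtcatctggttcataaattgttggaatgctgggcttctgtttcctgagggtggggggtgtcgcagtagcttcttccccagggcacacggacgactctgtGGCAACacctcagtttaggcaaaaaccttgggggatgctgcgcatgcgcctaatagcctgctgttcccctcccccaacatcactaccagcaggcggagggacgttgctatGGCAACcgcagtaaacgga
Ccdc39: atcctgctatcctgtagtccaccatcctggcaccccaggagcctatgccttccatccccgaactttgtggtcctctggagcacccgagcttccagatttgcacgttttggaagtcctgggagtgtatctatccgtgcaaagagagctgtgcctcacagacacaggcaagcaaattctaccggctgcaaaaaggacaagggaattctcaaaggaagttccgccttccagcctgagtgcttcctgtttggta
Cfap20dc: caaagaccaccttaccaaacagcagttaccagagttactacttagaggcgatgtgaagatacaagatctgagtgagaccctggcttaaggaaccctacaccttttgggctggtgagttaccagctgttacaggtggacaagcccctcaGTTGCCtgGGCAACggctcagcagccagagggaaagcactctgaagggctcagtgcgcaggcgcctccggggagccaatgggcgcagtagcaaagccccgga
Cfap44 holds an exact match at −129 and at −19, Cfap20dc holds a facing pair at −102 and −94, and Ccdc39 holds none in this window. In Cfap44 the match at −19 lies just after the unmarked variant gttgct. Over the 300-base windows of RefSeq (250 before to 50 after the start), 18 of the 53 members with an entry held GTTGCC on either strand (34.0%), against 3821 of 27025 genes (14.1%). The 18 include Dnah7a, Dnah7b and Dnah7c, whose promoters share sequence, so these are not separate occurrences. TGTTTAC, a forkhead core, was in 3 members (5.66%), against 4.05% of genes. Rsph4a, Rsph1 and Foxj1 had no entry.

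**Figure D3:**
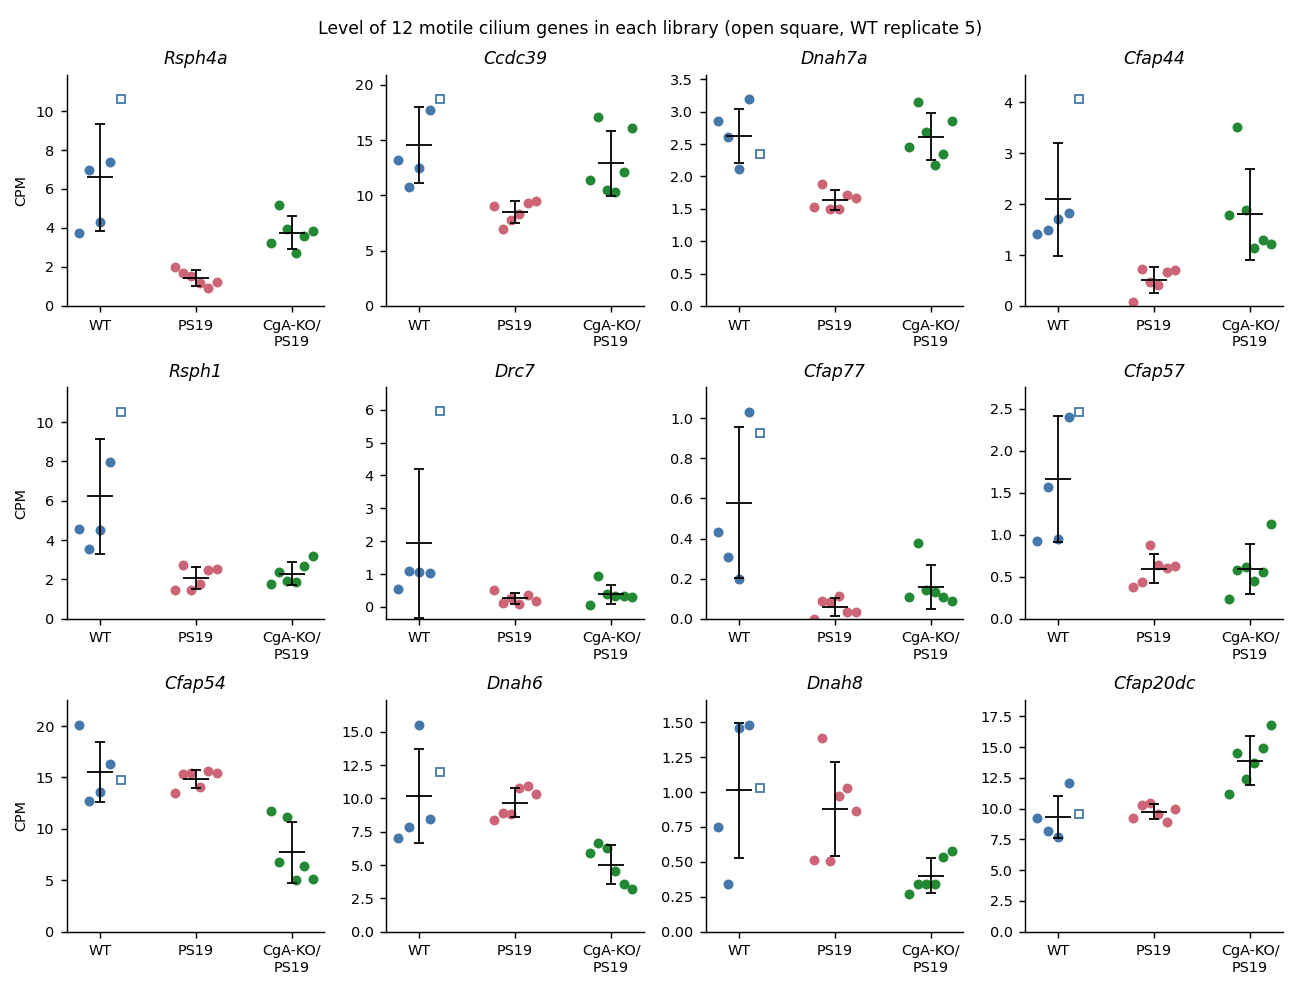
CPM of 12 members in every library of WT (n = 5), PS19 (n = 6) and CgA-KO/PS19 (n = 6), with the mean and SD in black and WT replicate 5 as an open square. In the top row all PS19 libraries lie below the other libraries, in the middle row WT replicate 4 or 5 is highest, and in the bottom row the CgA-KO/PS19 libraries lie lowest for Cfap54 and Dnah6 and have the highest mean for Cfap20dc.

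The striatum markers moved with this first pattern in part. In CgA-KO/PS19 replicates 4 to 6, whose striatum marker sums of 295 to 320 CPM were as low as in PS19, Rsph4a was 2.7, 3.61 and 3.87 CPM, Ccdc39 was 10.3, 12.1 and 16.1 CPM, Dnah7a was 2.17, 2.34 and 2.86 CPM and Cfap44 was 1.13, 1.29 and 1.21 CPM. Each value was above every PS19 library. That follows from the lack of overlap already given for these genes, so it is no separate test. In the knockout, 15 of the 20 striatum markers were called above their PS19 level (75.0%, beside 5.50% of all genes). With the striatum marker level as a covariate, Rsph4a, Ccdc39 and Dnah7a stayed past the threshold in both comparisons and Cfap44 in neither. Whether striatal tissue accounts for part of this pattern was not tested.

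The other genes higher in WT were scarce, and their WT values were led by replicate 4 or 5. Drc7, of the nexin link, was 0.550, 1.08, 1.05, 1.03 and 5.96 CPM in WT, 0.0776 to 0.528 CPM (median 0.238) in PS19 and 0.0713 to 0.936 CPM (median 0.330) in CgA-KO/PS19. WT and PS19 did not overlap, and the fold was 7.67 (log2 2.94 ± 0.64, adjusted p = 0.0107, edgeR). Without WT replicate 5 the log2 difference was 1.83 and the call was lost, although the other WT libraries (0.550 to 1.08 CPM) still lay above every PS19 library. The call was also lost in the replicate block fit, with either marker covariate, with the near-identical libraries averaged and without WT replicates 4 and 5. The log2 difference of CgA-KO/PS19 from WT was −2.34 ± 0.64 (adjusted p = 0.0351, edgeR) and lost its call without WT replicate 5 or without any 1 of CgA-KO/PS19 replicates 1, 3, 4, 5 and 6. Cfap77, a protein of the doublet microtubules, was 0.434, 0.307, 0.199, 1.03 and 0.927 CPM in WT and 0 to 0.116 CPM (median 0.0583) in PS19, without overlap (log2 3.14 ± 0.60, adjusted p = 0.00455, edgeR), and 0.0866 to 0.379 CPM in CgA-KO/PS19. Its call was lost with the choroid plexus covariate and without WT replicates 4 and 5.

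Cfap70, a protein of the outer arm region, was 0.579, 0.400, 0.654, 1.03 and 0.985 CPM in WT and 0.111 to 0.401 CPM (median 0.240) in PS19, where the groups met (log2 1.58 ± 0.37, adjusted p = 0.0168, edgeR). Cfap57, named after its values were seen, was 0.926, 1.57, 0.955, 2.40 and 2.46 CPM in WT, 0.382 to 0.874 CPM (median 0.620) in PS19 and 0.232 to 1.13 CPM (median 0.565) in CgA-KO/PS19, so WT was above PS19 (log2 1.44 ± 0.35, adjusted p = 0.0206) and CgA-KO/PS19 was lower than WT (log2 −1.48 ± 0.36, adjusted p = 0.0209). Both calls of Cfap57 and that of Cfap70 were lost without WT replicate 5, and the first of Cfap57 also without PS19 replicate 2. All of these calls were also lost with the choroid plexus covariate, with the near-identical libraries averaged and without WT replicates 4 and 5. That of Cfap70 was lost in the replicate block fit too, and the second of Cfap57 in a fit of only the genotypes compared.

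Spag17, a large central pair protein, was near the limit of counting. The WT libraries had 3, 19, 25, 6 and 49 counts, the PS19 libraries 0 to 3 and the CgA-KO/PS19 libraries 0 to 24. As 1 fragment adds about 3 counts, no PS19 library held more than about 1 fragment, and no fold is given (adjusted p = 0.0155 for WT against PS19, edgeR, lost without WT replicate 5). Spag6l, its neighbour in the central pair, was well counted: 6.91, 5.79, 6.43, 5.82 and 8.27 CPM in WT, 4.10 to 5.10 CPM (median 4.98) in PS19 and 5.20 to 7.68 CPM (median 6.12) in CgA-KO/PS19. PS19 lay below both other groups, yet neither difference passed the test (log2 0.46 ± 0.14, adjusted p = 0.0556, and log2 0.38 ± 0.13, adjusted p = 0.0726, edgeR). Likewise Cfap69, the most abundant central pair gene per length, was 17 to 20.0 CPM in WT and 12.3 to 15.1 CPM in PS19 (adjusted p = 0.0518), and Drc1 was 14.6 to 20.6 CPM and 12.6 to 13.9 CPM (adjusted p = 0.0556).

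A different set was low in CgA-KO/PS19 alone. Cfap54, a central pair protein, was 20.1, 12.7, 13.6, 16.3 and 14.8 CPM in WT, 13.5 to 15.6 CPM (median 15.3) in PS19 and 5.06 to 11.7 CPM (median 6.58) in CgA-KO/PS19. The CgA-KO/PS19 libraries lay below all others, with replicates 1 and 3 at 11.7 and 11.2 CPM and the other 4 at 5.06 to 6.75 CPM. The log2 difference was −0.95 ± 0.19 from PS19 (adjusted p = 0.00814, edgeR) and −1.0 ± 0.20 from WT (adjusted p = 0.00804), and WT and PS19 differed by 0.06 ± 0.20 (adjusted p = 0.914). The call against PS19 held in every alternative run, and that against WT in every one but the fit of only the genotypes compared.

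Dnah6, an inner arm motor, was 7.03, 7.87, 15.5, 8.44 and 12.0 CPM in WT, 8.40 to 10.9 CPM (median 9.58) in PS19 and 3.21 to 6.65 CPM (median 5.23) in CgA-KO/PS19. CgA-KO/PS19 overlapped with neither group and was lower than PS19 by a log2 of −0.94 ± 0.21 (adjusted p = 0.0119) and than WT by −1.02 ± 0.22 (adjusted p = 0.0102), both edgeR. The call against PS19 was lost with the near-identical libraries averaged. That against WT was lost in a fit of only the genotypes compared, in the replicate block fit and with the choroid plexus covariate. Dnah8, an outer arm motor best known from sperm, was 0.752, 0.338, 1.46, 1.48 and 1.03 CPM in WT, 0.505 to 1.39 CPM (median 0.918) in PS19 and 0.268 to 0.577 CPM (median 0.340) in CgA-KO/PS19, with overlap. Its log2 differences were −1.16 ± 0.35 (adjusted p = 0.0429) and −1.32 ± 0.37 (adjusted p = 0.0395, both edgeR), and the first was lost in 9 of 17 fits that left out 1 library (WT replicate 5, PS19 replicates 2, 4, 5 and 6, CgA-KO/PS19 replicates 1 to 4) and the second in 10 (WT replicates 3 to 5, PS19 replicates 4 to 6, CgA-KO/PS19 replicates 1 to 4). Dnah5, the most abundant outer arm motor per length, was 3.50 to 8.95 CPM, 3.23 to 5.70 CPM and 3.33 to 8.89 CPM in WT, PS19 and CgA-KO/PS19, and was not called.

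Cfap20dc moved in the opposite direction in the same mice. It lies on chromosome 14 from 8431192 to 8666240 and was 9.26, 8.16, 7.72, 12.1 and 9.56 CPM in WT, 8.90 to 10.5 CPM (median 9.79) in PS19 and 11.2 to 16.8 CPM (median 14.1) in CgA-KO/PS19. All CgA-KO/PS19 libraries were above PS19, and 1 WT library reached into their range. The gene was 1.42-fold higher than in PS19 (log2 0.51 ± 0.12, adjusted p = 0.0146, edgeR) and 1.5-fold higher than in WT (log2 0.58 ± 0.13, adjusted p = 0.0110, edgeR). Both calls were lost in the replicate block fit. The first was also lost with the near-identical libraries averaged and the second in a fit of only the genotypes compared. Cfap126, a protein of the doublet microtubules, was 0.752, 0.384, 0.393, 0.570 and 2.24 CPM in WT, 0.109 to 0.366 CPM (median 0.268) in PS19 and 0.148 to 2.05 CPM (median 0.861) in CgA-KO/PS19, with overlap between the last 2 (log2 1.80 ± 0.55, adjusted p = 0.0471), and its call was lost in 11 of 17 fits that left out 1 library, among them each of the 6 that left out a PS19 library.

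The remaining named members were not called in any comparison. Foxj1 was 2.49, 4.12, 3.16, 1.82 and 6.78 CPM in WT, 1.97 to 2.80 CPM (median 2.21) in PS19 and 0.866 to 4.58 CPM (median 3.02) in CgA-KO/PS19. WT straddled PS19, with a log2 difference of 0.71 ± 0.34 (adjusted p = 0.249, edgeR), and CgA-KO/PS19 spread to both sides of it (log2 0.33 ± 0.33, adjusted p = 0.547). The dynein intermediate chain Dnai4, the heavy chain Dnah14, Cfap95 and Cfap36 had adjusted p-values of 0.203, 0.912, 0.284 and 0.197 between WT and PS19 and of 0.234, 0.0977, 0.897 and 0.107 between CgA-KO/PS19 and PS19. Cfap36 was 87.3 to 146 CPM in WT, where the highest value was that of the shallow replicate 4, 76.8 to 92.1 CPM in PS19 and 81.7 to 142 CPM in CgA-KO/PS19.

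Among 13 tested regulators of multiciliation, WT had 3 above PS19 (23.1%, beside 3.95% of all genes) with a median log2 fold change of 0.70. CgA-KO/PS19 had 1 above PS19 (7.69%, near the 5.50% of all genes) with a median of 0.37. Rfx3, the most abundant of them, was in both counts: it was 64.7 to 106 CPM in WT, 36.7 to 51.1 CPM (median 45.7) in PS19 and 53.3 to 71.3 CPM (median 64.5) in CgA-KO/PS19. PS19 overlapped with neither group (log2 0.95, adjusted p = 0.000306, and log2 0.55, adjusted p = 0.00980, edgeR). The other regulators higher in WT, named after their values were seen, were Gmnc (log2 1.22, adjusted p = 0.00609) and Ccno (log2 1.05, adjusted p = 0.0202), both edgeR.

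Other parts of the motile cilium that the symbol rule missed were described beside the members. Of 48 such genes 4 were higher in WT than in PS19, namely Hydin of the central pair (log2 2.41), Dnali1 of the inner arms (2.34), Spef2 (1.46) and Efcab1 (1.29), and Efcab1 alone was higher in CgA-KO/PS19 (log2 0.90). These were 8.33% of the list beside 3.95% of all genes for WT, and 2.08% beside 5.50% for CgA-KO/PS19. The medians were 0.44 and 0.14. Of 35 genes of the primary cilium and of transport along cilia, edgeR called 0 in either direction between WT and PS19. Of all genes it called 3.95% higher and 1.95% lower. At an unadjusted p under 0.05, 5 of the 35 were higher and 1 lower, beside 2568 and 2257 of the 23062 genes. DESeq2 called 4 higher, beside 3.47% of all genes. Limma voom called 5 higher and 2 lower, beside 9.1% and 8.1% of all genes. Against PS19, Ift122 and the neuronal cilium receptor Sstr3 were lower in CgA-KO/PS19, each by a log2 of −0.42, which is 5.71% of the list and near the 4.22% of all genes. These genes were named after their values were seen.

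Markers of ciliated cell types were read in the same libraries. Of 15 tested ependymal markers, WT had 6 above PS19 (40.0%, beside 3.95% of all genes) and 1 below it (6.67%, beside 1.95%). CgA-KO/PS19 had 2 above PS19 (13.3%, beside 5.50%). Their sum was 78.0, 154, 92.0, 145 and 192 CPM in WT, 79.6 to 84.7 CPM in PS19 and 70.3 to 105 CPM in CgA-KO/PS19. Nnat, the most abundant of them and expressed in other cell types too, was 14.1 to 102 CPM, 4.15 to 10.6 CPM and 10.6 to 24.4 CPM in the 3 groups. The ependymal marker Tmem212 was at 0 in at least 1 library of every group and reached at most 0.473 CPM. Beside Nnat, the ependymal markers higher in WT than in PS19 were Ccdc153 (log2 3.61), Fam216b (3.55), Meig1 (1.46), Cd24a (1.17) and Tppp3 (0.76). Vim was the 1 below PS19 (log2 −0.46). These markers were named after their values were seen. Of 21 choroid plexus markers 11 were higher in WT than in PS19 (52.4%, beside 3.95%), but their sum was higher only in WT replicate 5, at 1566 CPM. It was 222 to 261 CPM in WT replicates 1 to 4, below every PS19 library (267 to 336 CPM). Enpp2 had the highest mean of the list (207 CPM), at 152 to 307 CPM in WT and 208 to 275 CPM in PS19. Outside WT replicate 5 the sum is mostly Enpp2, so it says little about the scarcer markers. Ttr was 3.24 to 1023 CPM in WT, 0.527 to 1.38 CPM in PS19 and 2.63 to 6.75 CPM in CgA-KO/PS19. Clic6 was 4.1 to 24.7 CPM in WT and 0.391 to 0.69 CPM in PS19. For Ttr and Clic6 every WT library, not replicate 5 alone, lay above every PS19 library. By contrast, Slc4a5 and Kcne2 had WT medians of 0 and 0.138 CPM and WT maxima of 4.64 and 5.8 CPM. These genes were named after their values were seen. Of 20 striatum markers 19 were higher in WT (beside 3.95% of all genes). With the choroid plexus marker level as a covariate 3 of the 10 members (Rsph4a, Rsph1 and Dnah7a) kept their call, beside 1.37% of all genes called higher. The other 7 kept their direction, and Ccdc39 had a log2 difference of 0.61 in place of 0.77. With the striatum marker level as a covariate 7 of the 10 kept their call, among 17 called higher, beside 10.4% of all genes. The part of these other tissues in the remaining differences was not tested.

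**Figure D4:**
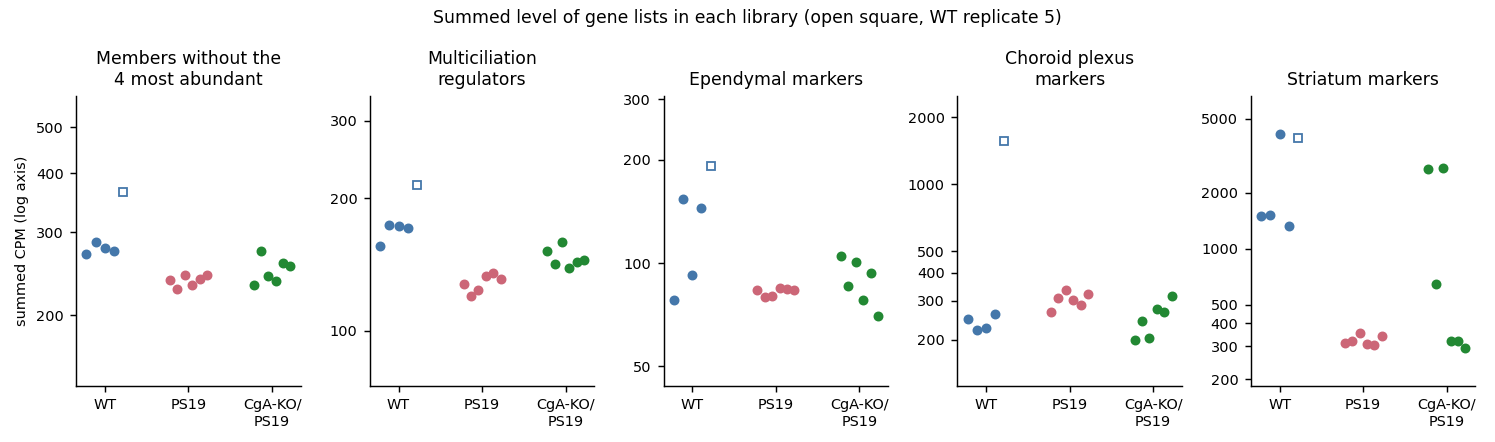
Summed CPM of gene lists in every library, each panel on its own log axis, with WT replicate 5 as an open square. The 71 members other than the 4 most abundant sum to 227 to 243 CPM in PS19 and 270 to 365 CPM in WT, choroid plexus markers stand out in WT replicate 5 (1566 CPM), and striatum markers are high in WT and in CgA-KO/PS19 replicates 1 to 3.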

How the data were processed

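Gene counts of 17 mouse prefrontal cortex libraries were used. Per the labels and the methods of the study, the authors trimmed paired reads with Trimmomatic 0.39, aligned them to mm10 with STAR 2.7.10b and deposited counts made with StringTie 1.3.6, whose conversion of coverage adds about 3 counts per fragment (3 was the commonest count from 2 to 8 in all 17 libraries); the annotation release and strand setting are not given in the sources used here. Library totals and intervals cover counting error only. The counts as deposited were fitted with edgeR 4.0.16 (TMM, filterByExpr, glmQLFit and glmQLFTest, no covariate, all 17 libraries, Benjamini-Hochberg adjustment over 23062 genes), and called means an adjusted p under 0.05. CPM used TMM. Lengths and positions came from GENCODE release M21 (74 of 75 members matched). On simulated counts for WT against PS19 (22905 genes tested, 200 changed by a log2 of 2), edgeR recovered 200 and made 9 false calls. The changed genes all had a mean over 1 CPM, whereas 33 members lay under 1 CPM, so recovery of scarce members was not tested. Named members are Foxj1, Ccdc39, Ccdc40, Spag17, Spag6l and, for each role, the called members with the 4 smallest p and the one with the highest level per kb. Members and lists were chosen with earlier results of these data known. Alternatives were DESeq2 1.42.0, limma 3.58.1 voom, other filters, scaling, covariates, the replicate block, averaged libraries and each library left out.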

Additional observations from a re-analysis of the deposited data

Results flagged for a closer look

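Of 99 groups of values checked (the 3 genotypes for each named member and each gene list), 11 held 1 library far from the rest of its genotype by Dixon's ratio. Chance flags about 1 in 20 groups, and libraries share the deviation across genes. Of the 11, 5 were WT replicate 5 and 3 were CgA-KO/PS19 replicate 2.

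In WT replicate 5, the highest of its genotype, Ccdc40 was 1.79 CPM (other WT libraries 0.570 to 0.914 CPM), Cfap126 was 2.24 CPM (0.384 to 0.752 CPM), Drc7 was 5.96 CPM (0.550 to 1.08 CPM), Cfap44 was 4.06 CPM (1.42 to 1.82 CPM) and the summed choroid plexus markers were 1566 CPM (222 to 261 CPM). In CgA-KO/PS19 replicate 2, Spag17 was 0.478 CPM (0 to 0.107 CPM in the others), Cfap77 was 0.379 CPM (0.0866 to 0.143 CPM) and Cfap44 was 3.51 CPM (1.13 to 1.89 CPM). Spag6l was lowest in PS19 replicate 4 at 4.10 CPM (4.95 to 5.10 CPM), Dnai4 was lowest in PS19 replicate 2 at 6.49 CPM (7.74 to 8.21 CPM), and Cfap36 was highest in WT replicate 4, the shallowest library, at 146 CPM (87.3 to 97.5 CPM).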

How the results depend on the processing

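The direction of each of the 26 called differences of named members held in every alternative that gave a value. Percentages in brackets are the share of all genes called in the same direction by the same fit. Members higher in WT than PS19 (10) numbered 20 with DESeq2 (3.47%), 17 with only the genotypes compared (5.97%) and 27 with limma voom (9.1%). They numbered 17 with the striatum covariate (10.4%), 3 with the choroid plexus covariate (1.37%) and 4 with near-identical libraries averaged (1.57%). Without WT replicates 4 and 5, chosen after seeing the data, they numbered 2 (1.55%). With 1 library left out they numbered 6 to 15, the fewest without WT replicate 5 (2.23%). Members lower in WT (0) numbered 2 with the striatum covariate (7.12%). Members higher in CgA-KO/PS19 than PS19 (6) numbered 11 with DESeq2 (5.85%), 10 with limma voom (10.3%), 3 with the replicate block (1.68%) and 0 with libraries averaged (0.509%). They numbered 4 to 10 with 1 left out, the most without WT replicate 4 (7.7%). Members lower (3) numbered 1 with libraries averaged (0.241%). Against WT, members higher in CgA-KO/PS19 (1) numbered 0 with only the genotypes compared (0.738%), 0 with the replicate block (1.41%) and 3 with the striatum covariate (9.95%). Members lower (6) numbered 1 with only the genotypes compared (0.562%), 3 with the replicate block (1.25%) and 2 with the choroid plexus covariate (0.906%). They numbered 3 with libraries averaged (1.21%), 2 without WT replicates 4 and 5 (1.54%) and 3 to 7 with 1 left out, the fewest without WT replicate 5 (1.26%). The causes were not tested; averaging and leaving out libraries leave fewer samples. In the replicate block fit members higher in WT than PS19 numbered 7 (2.22%). Over 16 same-number pairs the correlation of deviations ran from -0.232 to 0.437, with 2 over 0.1, so the numbers do not pair the libraries. The excess of GTTGCC over all genes, among members with a promoter entry and with each Dnah7 copy counted, was 19.9 percentage points on both strands and 11.4 on 1 strand. A count of 0 in the shallowest library allows up to 1.03 CPM.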
